A study of Mus musculus with 32 samples.

Results

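The 30 genes described here act at the passage from G2 into mitosis and in mitosis itself, and they were measured in mouse thymocytes before and after gamma irradiation. They were chosen by name for what they are known to do, with earlier results of these data known, and every probe of the array that carries one of these gene names was taken (Cdk1 under its older name Cdc2a). They had 49 of the 41174 probes on the array, 14 of the genes had more than 1 probe, and all 49 probes passed the filter on low signal. All 30 genes were therefore tested, among 20527 genes in all, each through its brightest probe, and each of these 30 probes was well above background on all 32 arrays.

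Cyclin B binds the kinase Cdk1, Cdc25 phosphatases switch the pair on, and its activity carries a cell from G2 into mitosis. Plk1 and the Aurora kinases build the spindle, Bub1 and Bub1b hold back anaphase until the chromosomes are attached, and the anaphase-promoting complex (APC/C), with Cdc20, then degrades cyclin B. Transcripts of these genes rise late in the cell cycle under the MuvB complexes and Foxm1, and p53 is known to lower them through its target Cdkn1a (p21), which favours the repressive DREAM form of MuvB. In the thymus, division takes place mainly among immature thymocytes, which are very sensitive to radiation.

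The mice were C57Bl/6 and 6 weeks old, and each sample pooled the thymocytes of 2 mice, 1 male and 1 female. P72 and R72 mice are named for the residue at codon 72 of p53, proline or arginine. Both were measured untreated (0 h) and at 2 h and 4 h after 5 Gy, with 4 arrays in each of these 6 groups, which the series describes as independent experiments. Mice labelled p53+/+ and p53-/- had 2 untreated arrays each, 1 array at 2 h and 1 array at 4 h, and nothing says whether the 2 untreated arrays of a genotype came from separate pools. The series asks how the codon 72 variants differ in their response to irradiation. All samples share strain, age and tissue, and no unirradiated sample at 2 h or 4 h was analysed here.

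A level here is the log2 of a probe's processed spot intensity minus the log2 of the 75th percentile of its array, so that 0 is the brightness of that percentile. Levels were compared between samples and never between genes, because probes differ in brightness. The 75th percentile ranged from 268.3 to 1031 intensity units between arrays, 52.4% to 71.5% of probes were well above background, and no spot was saturated. A gene is said to have fallen or risen where limma's test gave an adjusted p under 0.05, with Benjamini-Hochberg adjustment over all genes. Errors of changes are standard errors of the fit (SE).

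The labels were checked on p53 and on its targets Cdkn1a and Ccng1 (cyclin G1). Cdkn1a rose by 4.21 ± 0.24 on the log2 scale in P72 at 2 h, by 3.33 ± 0.24 in R72 at 2 h and by 4.54 ± 0.33 in irradiated p53+/+. In irradiated p53-/- its change was 0.99 ± 0.33 (adjusted p = 0.171), and that of Ccng1 was -0.1 ± 0.15 (adjusted p = 0.883). The brightest Trp53 probe was well above background on all 32 arrays, p53-/- included (mean log2 level -0.18 in untreated p53-/- and 0.06 in untreated p53+/+). The other Trp53 probe was well above background on 19 arrays, with a mean log2 level of -1.69 in untreated p53-/-, -0.85 in untreated p53+/+, -6.44 in untreated P72 and -6.56 in untreated R72. Where these probes lie relative to the deleted or exchanged part of the gene is not given in the sources used here, so they check no label.

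Stretches of 150 bases that end just before the start site are printed for 6 of the genes whose changes the results turn on, because the members moved together and their promoters are known for a pair of short elements. These are CCAAT, bound by the factor NF-Y, and the cell cycle homology region TTTGAA (CHR), bound by MuvB, with TTCGAA as a variant. Each sequence is from RefSeq (build GRCm38.p6), on the strand of the gene, with matches in capitals, so that a match on the opposite strand reads ATTGG or TTCAAA.
Ccnb1 (chr13:100786487-100786636, minus strand): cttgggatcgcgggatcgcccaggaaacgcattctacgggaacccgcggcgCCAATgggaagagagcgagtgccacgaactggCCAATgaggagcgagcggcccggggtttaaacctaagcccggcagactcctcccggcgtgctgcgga
Ccnf (chr17:24251410-24251559, minus strand): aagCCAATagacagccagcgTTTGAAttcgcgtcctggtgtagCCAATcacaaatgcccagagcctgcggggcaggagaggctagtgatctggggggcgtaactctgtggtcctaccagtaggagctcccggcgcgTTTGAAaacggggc
Cdk1 (chr10:69352913-69353062, minus strand): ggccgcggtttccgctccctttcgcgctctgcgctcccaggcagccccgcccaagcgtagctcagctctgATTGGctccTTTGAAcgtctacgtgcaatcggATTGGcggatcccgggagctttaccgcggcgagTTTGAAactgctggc
Cdc20 (chr4:118437344-118437493, minus strand): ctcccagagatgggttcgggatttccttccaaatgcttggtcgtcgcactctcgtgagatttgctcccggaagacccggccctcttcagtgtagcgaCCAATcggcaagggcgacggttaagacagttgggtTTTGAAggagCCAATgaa
Ube2c (chr2:164769779-164769928, plus strand): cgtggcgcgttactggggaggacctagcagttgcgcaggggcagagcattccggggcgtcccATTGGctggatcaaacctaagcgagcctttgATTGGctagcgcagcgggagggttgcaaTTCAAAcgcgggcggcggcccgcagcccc
Top2a (chr11:99024190-99024339, minus strand): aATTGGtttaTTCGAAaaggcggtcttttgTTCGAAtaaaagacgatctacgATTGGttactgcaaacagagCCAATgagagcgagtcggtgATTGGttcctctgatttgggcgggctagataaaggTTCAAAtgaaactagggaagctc

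The Ccnb1 stretch holds CCAAT at positions -99 and -67, counted from the start site with upstream negative, and no match to TTTGAA or TTCGAA. Other forms of the CHR were not searched, so this does not show that Ccnb1 lacks one. In Cdk1 and Cdc20, TTTGAA lies close to the start site, at positions -15 and -18, and Cdk1 also holds it at -71. In Ccnf it lies at -130 and -14 on the strand of the gene, and in Ube2c at -29 on the opposite strand. Windows from 250 bases before to 50 bases after the start site were found for 25 of the 30 genes. Those of Ccna2, Cdc25c, Aurkb, Kif20a and Tpx2 were not.

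Among the 25 genes, 18 held TTTGAA on either strand (72.0%, against 20.2% of 27025 genes with such windows), and 4 held TTCGAA (16% against 1.8%). CCAAT was found in 22 (88.0% against 41.1%), at least 2 copies of it in 15 (60.0% against 13.3%), and CCAAT with a CHR of either form in 19 (76.0% against 8.6%). No match of one element overlapped a match of the other in these windows. Birc5 and Nusap1 held neither element in the forms searched. A match is a description of the letters, not a mapped binding site.

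In P72 and R72 thymocytes the mitotic genes were lower at 2 h and at 4 h than before irradiation, and none rose. In P72, 25 of the 30 fell at 2 h, where 4.88% of all genes tested fell, and all 30 fell at 4 h, where 20.8% of all genes did. In R72, 22 fell at 2 h (6.8% of all genes) and 25 at 4 h (16% of all genes). The median log2 change of the 30 genes was -0.93 and -0.86 in P72 and -0.73 and -0.65 in R72, while that of all genes lay between 0.03 and 0.11. Centred on the array median in place of the 75th percentile, the medians of the 30 genes were -1.13 and -1.45 in P72 and -0.85 and -1.11 in R72, and those of all genes -0.14, -0.49, -0.08 and -0.36, so the order of 2 h and 4 h depends on the centring. The 2 h and 4 h comparisons of a genotype share its 0 h arrays. With a normexp background correction the R72 counts were 11 at 2 h and 14 at 4 h. In these bulk samples, fewer dividing cells and less RNA per cell cannot be told apart.

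The arrays themselves separated in the same way. At 2 h, every P72 array lay below every untreated P72 array for 26 of the 30 genes (8.43% of all genes), the others being Aurkb, Bub1, Kif11 and Top2a. At 4 h this held for 28 genes in P72 (20.9% of all genes), with Aurkb and Ect2 overlapping. In R72 it held for 24 genes at 2 h (7.46% of all genes) and 22 at 4 h (16% of all genes).

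**Figure D1:**
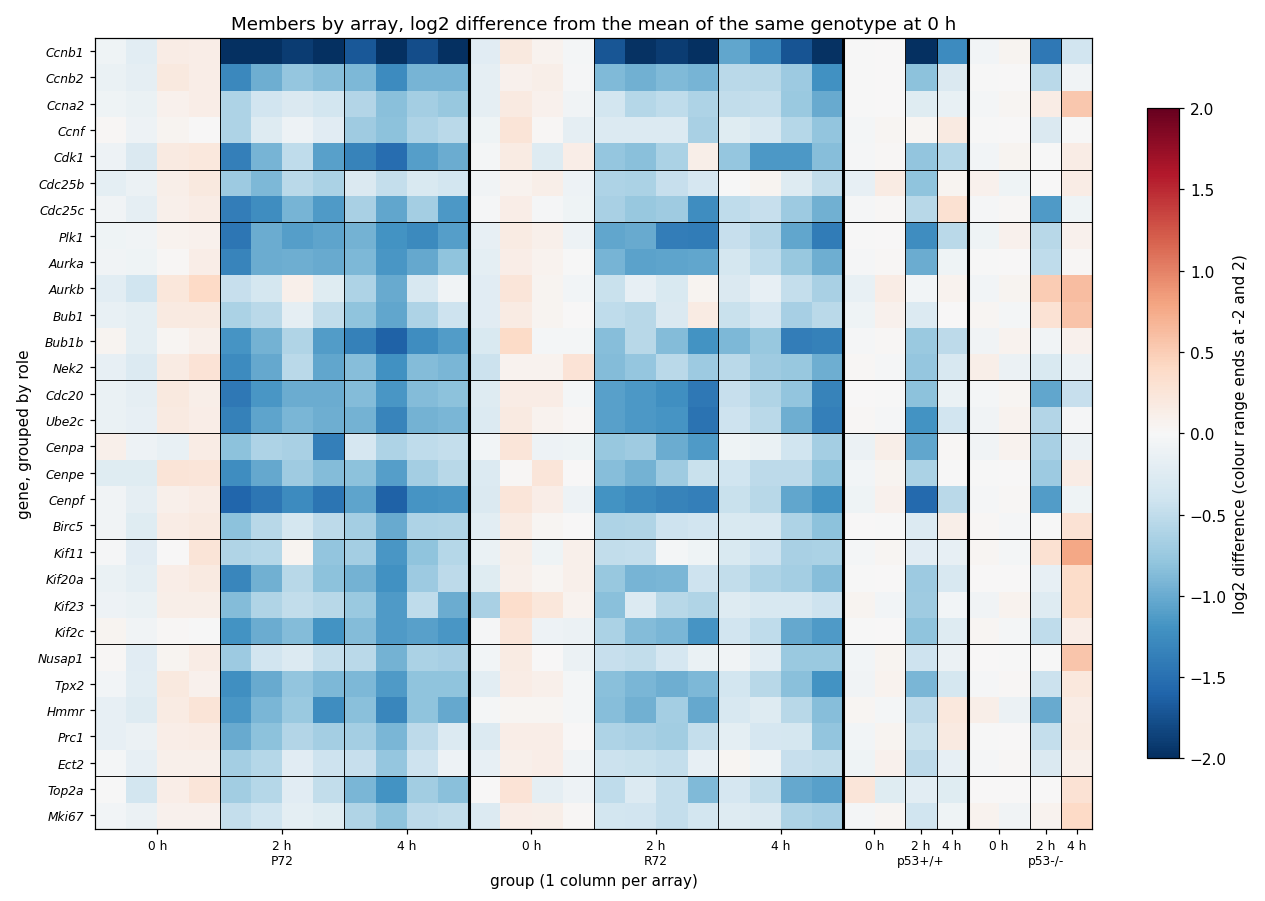
Log2 level of each of the 30 genes (vertical axis, grouped by role) on each of the 32 arrays (horizontal axis, 1 column per array), minus the mean of the untreated arrays of the same genotype; blue is lower and red is higher. The row of Ccnb1 is the darkest blue after irradiation, and in the p53-/- column at 4 h Kif11, at 0.77, is the reddest cell.

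Of the cyclins with Cdk1, 4 of 5 fell at 2 h in P72 and 3 of 5 in R72, and all 5 fell at 4 h in both. Ccnb1 (cyclin B1) fell furthest of the 30 genes in each of these 4 comparisons. Its log2 level in P72 was 1.96, 1.84, 2.2 and 2.18 at 0 h, -0.41, -0.1, 0.14 and -0.1 at 2 h, and 0.35, -0.27, 0.27 and -0.01 at 4 h. In R72 it was 1.74, 2.17, 2.04 and 1.94 at 0 h, 0.26, -0.01, 0.08 and -0.09 at 2 h, and 0.94, 0.69, 0.25 and 0 at 4 h. Untreated and irradiated arrays did not overlap, and the R72 arrays were most spread at 4 h. The fall in P72 was 2.16 ± 0.18 at 2 h, which is 4.48-fold (adjusted p = 2.88e-08, n = 4 against 4), and 1.96 ± 0.18 at 4 h (adjusted p = 4.14e-08). In R72 Ccnb1 fell by 1.91 ± 0.18 at 2 h (adjusted p = 2.33e-07) and by 1.5 ± 0.18 at 4 h (adjusted p = 2.49e-06). Its other 2 probes fell too, by 1.85 and 1.97 in P72 at 2 h. The chosen probe lies at positions 97885282 to 97885341 of chromosome 13 in the mm7 build of the files.

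Ccnb2 (cyclin B2) fell by 0.97 ± 0.14 and 1 ± 0.14 in P72 at 2 h and 4 h and by 0.91 ± 0.14 and 0.76 ± 0.14 in R72. Ccna2 (cyclin A2, which acts in S phase and G2) fell less at 2 h. Its log2 level in P72 was 4.08, 4.03, 4.25 and 4.29 at 0 h, 3.54, 3.78, 3.87 and 3.8 at 2 h, and 3.58, 3.32, 3.48 and 3.4 at 4 h. Each irradiated array lay below each untreated one, and 3 of the 4 arrays at 4 h lay below all those at 2 h. Ccna2 fell by 0.41 ± 0.12 at 2 h (adjusted p = 0.0207) and 0.72 ± 0.12 at 4 h (adjusted p = 3.31e-05) in P72, and by 0.52 ± 0.12 and 0.68 ± 0.12 in R72.

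Ccnf (cyclin F, the substrate receptor of a ubiquitin ligase) changed by -0.3 ± 0.13 in P72 at 2 h (adjusted p = 0.133) and by -0.37 ± 0.13 in R72 (adjusted p = 0.0731). It fell at 4 h, by 0.67 ± 0.13 in P72 and 0.48 ± 0.13 in R72. Cdk1, the kinase that cyclin B activates, had log2 levels of 1.78, 1.6, 2.07 and 2.09 at 0 h, 0.52, 0.96, 1.37 and 0.8 at 2 h, and 0.55, 0.36, 0.79 and 0.89 at 4 h in P72. In R72 they were 1.92, 2.12, 1.7 and 2.1, then 1.19, 1.12, 1.33 and 2.07, and then 1.18, 0.81, 0.81 and 1.11. The R72 array at 2 h with 2.07 stood among the untreated arrays, and the other irradiated arrays of both genotypes lay below them. Cdk1 fell by 0.98 ± 0.2 and 1.24 ± 0.2 in P72 and by 0.98 ± 0.2 in R72 at 4 h, and its change in R72 at 2 h was -0.54 ± 0.2 (adjusted p = 0.0816). A dimmer Cdk1 probe, well above background on 9 arrays, changed by -0.15 in P72 at 2 h and 0.84 in R72 at 4 h (adjusted p = 0.85 and 0.111).

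**Figure D2:**
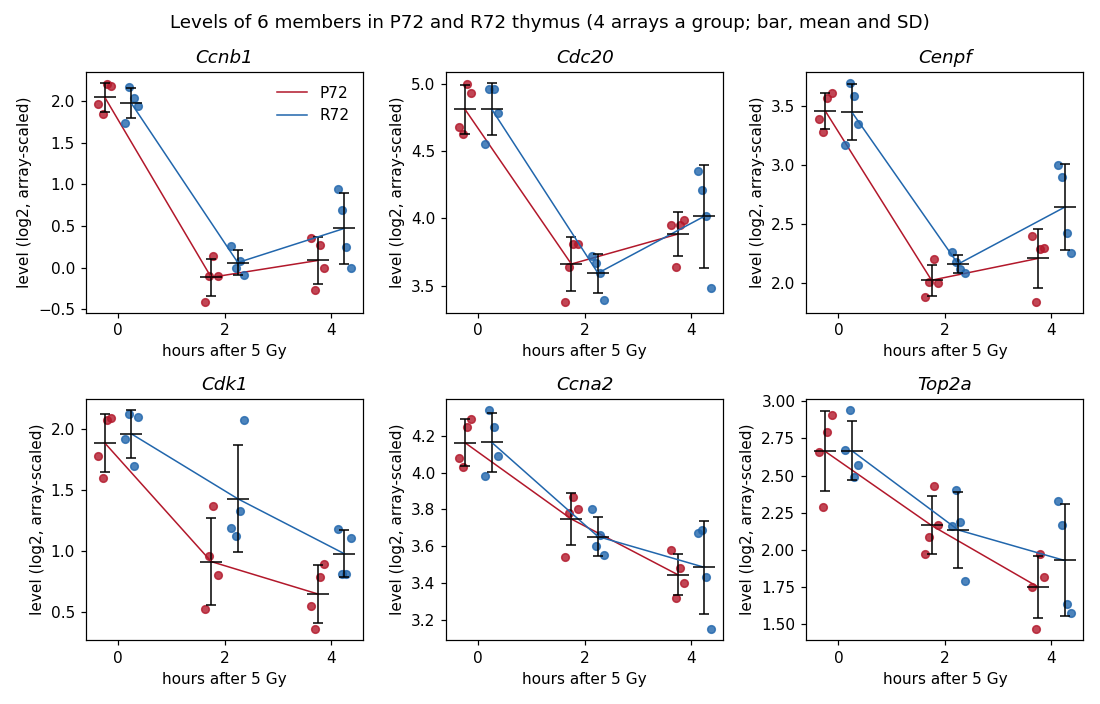
Log2 level (vertical axis, relative to the 75th percentile of the array) of Ccnb1, Cdc20, Cenpf, Cdk1, Ccna2 and Top2a against hours after 5 Gy (horizontal axis) in P72 (red) and R72 (blue); points are arrays, bars the mean with SD (n = 4), and lines join the means. Ccnb1, Cdc20 and Cenpf were lowest at 2 h by their group means, and Cdk1, Ccna2 and Top2a at 4 h, an order that depends on the centring of the arrays.

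Both Cdc25 phosphatases among the 30 genes, Cdc25b and Cdc25c, fell at 2 h in both genotypes. Cdc25a, which is not among them, changed at 2 h by -0.14 ± 0.17 in P72 and -0.53 ± 0.17 in R72 (adjusted p = 0.642 and 0.0481). Cdc25c, which activates Cdk1 at mitotic entry, had log2 levels of -1.62, -1.73, -1.44 and -1.39 at 0 h, -2.93, -2.79, -2.48 and -2.68 at 2 h, and -2.2, -2.58, -2.22 and -2.69 at 4 h in P72. It fell by 1.17 ± 0.15 at 2 h (adjusted p = 1.28e-05) and 0.88 ± 0.15 at 4 h there. In R72 it fell by 0.84 ± 0.15 and 0.67 ± 0.15. Cdc25b, which acts earlier at the centrosome, fell by 0.7 ± 0.12 at 2 h and 0.36 ± 0.12 at 4 h in P72 (adjusted p = 0.000408 and 0.0145), the smallest fall of the 30 genes at 4 h. In R72 it fell by 0.51 ± 0.12 at 2 h and changed by -0.18 ± 0.12 at 4 h (adjusted p = 0.236). The dimmest of its 3 probes changed by 0.05 in P72 at 4 h (adjusted p = 0.829).

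Of the 6 mitotic kinases, 4 fell at 2 h in each genotype, and at 4 h 6 fell in P72 and 5 in R72. Plk1, which drives centrosome maturation and mitotic entry, fell by 1.15 ± 0.16 and 1.13 ± 0.16 in P72 and by 1.2 ± 0.16 and 0.87 ± 0.16 in R72. Aurka (Aurora A, at the spindle poles) had log2 levels of 3.98, 3.96, 4.07 and 4.18 at 0 h, 2.73, 3.06, 3.07 and 3.04 at 2 h, and 3.15, 2.88, 3.03 and 3.25 at 4 h in P72. It fell by 1.07 ± 0.12 at 2 h (adjusted p = 1.98e-06) and by 0.97 ± 0.12 at 4 h (adjusted p = 1.5e-06). In R72 the falls of Aurka were 1.02 ± 0.12 and 0.65 ± 0.12. Aurkb is Aurora B, of the chromosomal passenger complex. Its log2 levels in P72 were 0.58, 0.39, 1.02 and 1.19 at 0 h and 0.33, 0.45, 0.89 and 0.55 at 2 h, which overlap. Its change was -0.24 ± 0.2 at 2 h (adjusted p = 0.446) and it fell by 0.5 ± 0.2 at 4 h in P72 (adjusted p = 0.0336). In R72 its changes were -0.21 ± 0.2 and -0.39 ± 0.2 (adjusted p = 0.505 and 0.111).

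The spindle checkpoint kinases differed in size of change. Bub1b (BubR1) fell by 0.96 ± 0.18 and 1.33 ± 0.18 in P72 and by 0.87 ± 0.18 and 1.09 ± 0.18 in R72. At 4 h the fall of Bub1b was exceeded only by that of Ccnb1 in both genotypes. Bub1 changed by -0.46 ± 0.16 in P72 at 2 h (adjusted p = 0.0546) and by -0.3 ± 0.16 in R72 (adjusted p = 0.225), and fell at 4 h by 0.71 ± 0.16 and 0.49 ± 0.16. Nek2, which separates the centrosomes, fell by 0.96 ± 0.16 at both times in P72 and by 0.73 ± 0.16 and 0.74 ± 0.16 in R72. Whether these genes differ from each other was not tested.

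Cdc20, the co-activator of the APC/C, and Ube2c, the ubiquitin-conjugating enzyme that serves it, fell in all 4 comparisons. The log2 level of Cdc20 in R72 was 4.55, 4.96, 4.96 and 4.78 at 0 h, 3.72, 3.67, 3.59 and 3.39 at 2 h, and 4.35, 4.21, 4.02 and 3.48 at 4 h. All irradiated arrays lay below all untreated ones, and the array with 3.48 stood lowest at 4 h. Cdc20 fell by 1.22 ± 0.16 and 0.8 ± 0.16 in R72 (adjusted p = 2.33e-05 and 0.000414) and by 1.15 ± 0.16 and 0.93 ± 0.16 in P72. Ube2c fell by 1.23 ± 0.17 and 0.83 ± 0.17 in R72 and by 1.08 ± 0.17 and 1.03 ± 0.17 in P72.

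The 4 genes of the centromere and kinetochore fell in P72 at both times and in R72 at 2 h. Cenpf, a large kinetochore protein that builds up in G2, fell second furthest at 2 h in both genotypes. Its log2 level in P72 was 3.39, 3.28, 3.57 and 3.61 at 0 h, 1.88, 2.01, 2.2 and 2 at 2 h, and 2.4, 1.84, 2.29 and 2.3 at 4 h. In R72 it was 3.17, 3.7, 3.59 and 3.35, then 2.26, 2.18, 2.12 and 2.08, and then 3, 2.9, 2.42 and 2.25. No irradiated array reached an untreated one, and 3 of the 4 R72 arrays at 4 h lay above all those at 2 h. Cenpf fell by 1.44 ± 0.16 (adjusted p = 1.7e-06) and 1.26 ± 0.16 in P72 and by 1.29 ± 0.16 and 0.81 ± 0.16 in R72. Cenpe, the kinetochore kinesin, fell by 0.97 ± 0.16 and 0.79 ± 0.16 in P72 and by 0.74 ± 0.16 and 0.56 ± 0.16 in R72. Cenpa, the histone H3 variant that marks centromeres, fell by 0.86 ± 0.16 and 0.49 ± 0.16 in P72 and by 0.9 ± 0.16 at 2 h in R72, and its change in R72 at 4 h was -0.33 ± 0.16 (adjusted p = 0.0926). Birc5 (survivin, a partner of Aurora B) fell by 0.56 ± 0.13 and 0.73 ± 0.13 in P72 and by 0.5 ± 0.13 and 0.52 ± 0.13 in R72.

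Of the 4 mitotic kinesins, Kif2c, Kif20a and Kif23 fell at 2 h in both genotypes. Kif2c, which depolymerises microtubules at centromeres, fell by 1.06 ± 0.15 and 1.07 ± 0.15 in P72 and by 0.9 ± 0.15 and 0.76 ± 0.15 in R72. Kif20a, which works at the spindle midzone in cytokinesis, fell by 0.9 ± 0.16 and 0.85 ± 0.16 in P72 and by 0.75 ± 0.16 and 0.66 ± 0.16 in R72. Kif23, of the centralspindlin complex, fell by 0.63 ± 0.17 and 0.84 ± 0.17 in P72 and by 0.57 ± 0.17 in R72 at 2 h, and its change in R72 at 4 h was -0.33 ± 0.17 (adjusted p = 0.131). Kif11 (Eg5), which pushes the spindle poles apart, had overlapping levels at 2 h. They were 0.75, 0.55, 0.78 and 1.03 at 0 h and 0.17, 0.2, 0.83 and -0.01 at 2 h in P72, and the array with 0.83 was the one among the untreated. Its change was -0.48 ± 0.17 in P72 at 2 h (adjusted p = 0.059) and -0.27 ± 0.17 in R72 (adjusted p = 0.302), and it fell at 4 h by 0.8 ± 0.17 and 0.5 ± 0.17.

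The spindle and midzone proteins fell in P72 at both times, all 5 of them, and in R72 3 fell at 2 h and 4 at 4 h. Tpx2, which activates Aurora A on the spindle, fell by 0.98 ± 0.14 and 0.91 ± 0.14 in P72 and by 0.9 ± 0.14 and 0.74 ± 0.14 in R72. Hmmr, a microtubule-binding partner of Tpx2, fell by 1.02 ± 0.15 and 0.99 ± 0.15 in P72 and by 0.88 ± 0.15 and 0.5 ± 0.15 in R72. Prc1, which bundles midzone microtubules, fell by 0.77 ± 0.14 and 0.6 ± 0.14 in P72 and by 0.61 ± 0.14 and 0.41 ± 0.14 in R72. Nusap1, a microtubule stabiliser, fell by 0.47 ± 0.15 and 0.7 ± 0.15 in P72 and by 0.44 ± 0.15 in R72 at 4 h. Another Nusap1 probe, of a separate cDNA accession, changed in the other direction, by 0.44 in P72 and 0.54 in R72 at 4 h (adjusted p = 0.131 and 0.0775). With the mean of both probes the change of Nusap1 in R72 at 4 h was 0.05. Ect2, the exchange factor that starts the cleavage furrow, fell by 0.47 ± 0.14 and 0.44 ± 0.14 in P72, while in R72 its changes were -0.38 ± 0.14 and -0.25 ± 0.14 (adjusted p = 0.0813 and 0.165). A dimmer Ect2 probe changed by 0.5 in R72 at 4 h (adjusted p = 0.0935).

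Top2a (topoisomerase II alpha, which untangles sister chromatids) and Mki67 (the Ki-67 antigen, which coats mitotic chromosomes) had small changes at 2 h. The log2 level of Top2a in P72 was 2.66, 2.29, 2.79 and 2.91 at 0 h, 1.97, 2.09, 2.43 and 2.17 at 2 h, and 1.75, 1.47, 1.97 and 1.82 at 4 h. At 2 h 1 array lay within the untreated range, and at 4 h all lay below it. Its change was -0.49 ± 0.18 in P72 and -0.53 ± 0.18 in R72 at 2 h (adjusted p = 0.0668 and 0.0524), and it fell at 4 h by 0.91 ± 0.18 and 0.74 ± 0.18. Mki67 fell by 0.33 ± 0.11 and 0.6 ± 0.11 in P72 and by 0.4 ± 0.11 and 0.46 ± 0.11 in R72.

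At 2 h in P72 the calls lost on leaving out 1 array at a time were those of 5 genes with falls of 0.33 to 0.63. Leaving out 1 array ended the call of Ect2 in P72 at 2 h in 5 of 8 cases, and those of Mki67 and Nusap1 in 6 of 8 cases each. For Ccna2 and Kif23 this happened in 3 of 8 cases. The calls of Ccnb1, Cdc20, Ube2c, Plk1, Cenpf, Kif2c and Tpx2 held in all 8 cases at each time in both genotypes.

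**Figure D3:**
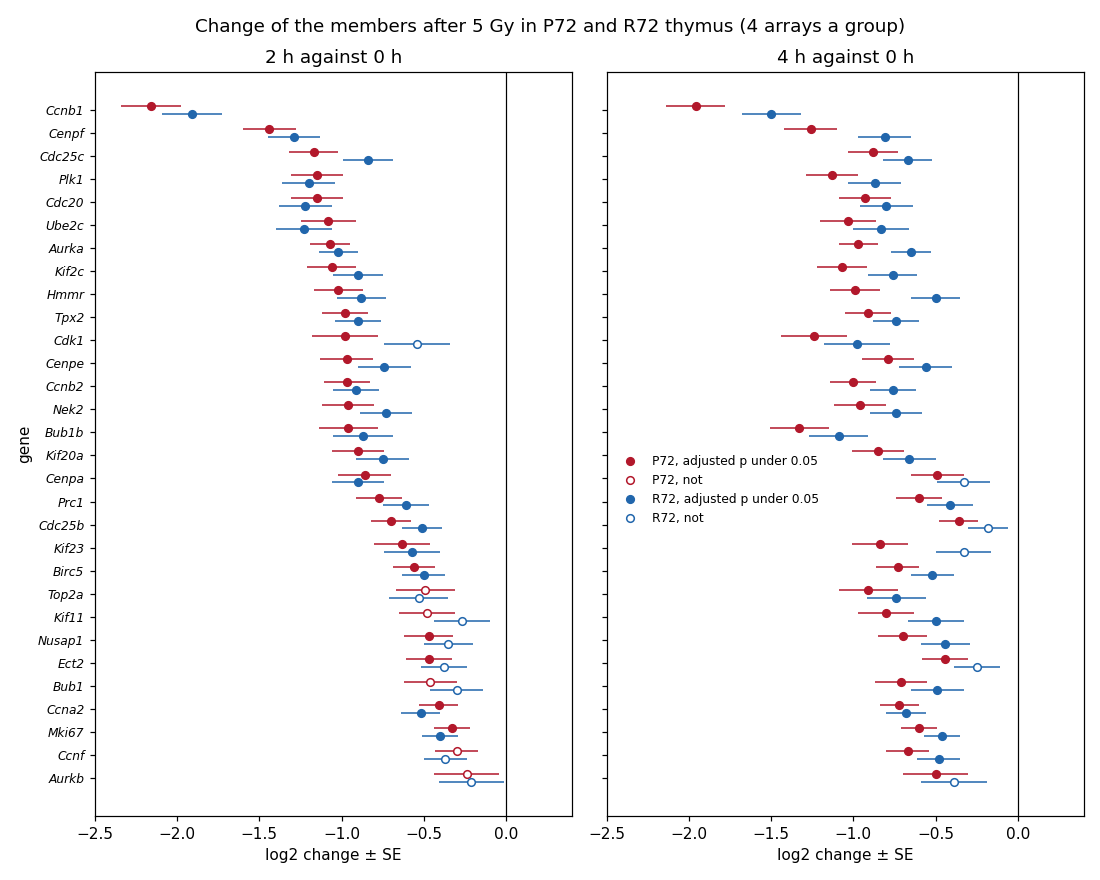
Log2 change from 0 h to 2 h (left) and to 4 h (right) of the 30 genes in P72 (red) and R72 (blue), with SE as bars, n = 4 against 4; filled points have an adjusted p under 0.05. All points lie below 0, from -2.16 for Ccnb1 in P72 at 2 h to -0.18 for Cdc25b in R72 at 4 h.

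Between 2 h and 4 h the 30 genes did not move together. Their median log2 change from 2 h to 4 h was 0.01 in P72 and 0.15 in R72, beside 0.07 for all genes in both. In P72, Ccna2 fell by 0.3 ± 0.12 (adjusted p = 0.0486) and Ccnf by 0.37 ± 0.13 (adjusted p = 0.0371), and Cdc25b rose by 0.35 ± 0.12 (adjusted p = 0.0299), where 10.7% of all genes fell and 21.5% rose. In R72, Aurka rose by 0.37 ± 0.12 (adjusted p = 0.0288), Cenpa by 0.58 ± 0.16 (adjusted p = 0.0135) and Cenpf by 0.48 ± 0.16 (adjusted p = 0.0339), where 4.95% of all genes fell and 16.1% rose. These counts are near or below the share among all genes.

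The sign of this later change differed between genes. For 15 of them it was above 0 in both genotypes, and these include Ccnb1, Cdc20, Ube2c, Plk1, Aurka, Cenpa, Cenpe, Cenpf, Cdc25b and Cdc25c. For 11 it was below 0 in both, and these were Top2a, Bub1b, Ccnf, Kif11, Ccna2, Mki67, Aurkb, Cdk1, Bub1, Nusap1 and Birc5. The direction depends on how the arrays are centred: with the array median in place of the 75th percentile, the median change of the 30 genes was -0.38 in P72 and -0.19 in R72, 14 and 10 genes fell, and none rose. That centring moved the median of all genes to -0.33 and -0.27. The calls also rested on few arrays. Leaving out any 1 of 7 arrays of P72 at 2 h or 4 h, all but replicate 1 at 2 h, left 1 gene or none. In R72, 9 genes were called without replicate 4 at 4 h, none without replicate 2 at 4 h, 1 without replicate 1 at 4 h or replicates 3 or 4 at 2 h, and 3 without any of the others.

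The comparison of P72 with R72 asks whether the codon 72 variants differ in these genes. Before irradiation, none of the 30 genes differed (0.594% of all genes were lower in P72 and 0.326% higher), and none had an unadjusted p under 0.05. The differences in level ran from -0.12 for Bub1b to 0.26 for Kif11, with a median of 0. At 2 h none differed either (0.628% of all genes lower and 0.653% higher), and 2 had an unadjusted p under 0.05. These were Cdc25c at -0.44 ± 0.15 (adjusted p = 0.146) and Cdk1 at -0.51 ± 0.2 (adjusted p = 0.206), both lower in P72.

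At 4 h the level of each of the 30 genes was lower in P72 than in R72, by 0.04 to 0.45 with a median of 0.20 on the log2 scale, but none passed the threshold (0.585% of all genes lower and 0.667% higher). The genes share their arrays, so 30 equal signs are not 30 separate observations. The smallest adjusted p was 0.19, for Aurka at -0.34 ± 0.12. Cenpf stood at -0.44 ± 0.16, Hmmr at -0.41 ± 0.15 and Ccnb1 at -0.38 ± 0.18 (adjusted p = 0.201, 0.211 and 0.345), and 7 genes had an unadjusted p under 0.05. Kif23 was the only one of the 30 whose 4 P72 arrays (1.26, 0.86, 1.49 and 1.01) all lay below the 4 R72 arrays (1.68, 1.61, 1.62 and 1.52), a separation found for 4.57% of all genes. Its difference was -0.45 ± 0.17 (adjusted p = 0.236). The 95% intervals of the 30 differences reached from -0.82 to 0.3.

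The responses themselves, as changes from 0 h, were also compared. None of the 30 genes differed in response at 2 h (0% of all genes lower and 0.00487% higher in P72) or at 4 h (0% in either direction), and 0 and 2 genes had an unadjusted p under 0.05. At 4 h the response of each gene was lower in P72, by 0.04 to 0.51 with a median of 0.21, and the intervals reached from -1.03 to 0.46. Hmmr at -0.5 ± 0.21 and Kif23 at -0.51 ± 0.25 were the furthest from 0 (adjusted p = 0.843 and 0.885).

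The arrays of P72 and R72 were scanned on 3 dates, and only the first holds both genotypes at 4 h, with 2 arrays each. On that date the median difference at 4 h was -0.54, and the median difference of responses was -0.43. The other 4 h arrays lie on separate dates, where scan date and genotype cannot be told apart. No slide held both genotypes at 4 h, on the first date either, where P72 lay on slides 3 and 4 and R72 on slide 5. Slide and genotype therefore cannot be told apart among the 4 h arrays alone. The 2 R72 arrays of the first date were the higher ones at 4 h for Ccnb1 (0.94 and 0.69, against 0.25 and 0) and Plk1 (3.02 and 2.89, against 2.44 and 2.08). With scan date as a block, 0 of the 30 genes differed at 4 h and 1 at 2 h.

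The p53+/+ and p53-/- arrays ask whether these changes are seen without p53. Irradiated p53+/+ and p53-/- groups had 1 array each at 2 h and at 4 h, so their spread was taken from the fit over all 32 arrays, under the assumption that the lone arrays vary like the others. The main comparison sets the mean of 2 h and 4 h against 0 h. In p53+/+, 7 of the 30 genes fell (10.3% of all genes) and the median change was -0.38, beside 0.09 for all genes. In p53-/-, none fell or rose (0.326% and 0.74% of all genes), 8 had an unadjusted p under 0.05, and the median change was -0.13.

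The genes that fell in p53+/+ were Ccnb1, Cenpf, Plk1, Ube2c, Tpx2, Ccnb2 and Aurka. Ccnb1 had log2 levels of 1.76 and 1.77 at 0 h, -0.46 at 2 h and 0.5 at 4 h in p53+/+, and of 1.71 and 1.61, 0.23 and 1.28 in p53-/-. It was lowest at 2 h in both genotypes and higher again at 4 h. Ccnb1 fell by 1.75 ± 0.24 in p53+/+ (adjusted p = 2.16e-05), and its change in p53-/- was -0.9 ± 0.24 (adjusted p = 0.0708). Cenpf fell by 1.04 ± 0.21 in p53+/+ (adjusted p = 0.00134), Plk1 by 0.89 ± 0.22, Ube2c by 0.79 ± 0.23 and Tpx2 by 0.63 ± 0.19. Their changes in p53-/- were -0.6 ± 0.21, -0.24 ± 0.22, -0.31 ± 0.23 and -0.11 ± 0.19, none past the threshold. At the other end, Ccnf and Aurkb stood at 0.11 ± 0.18 and 0.01 ± 0.27 in p53+/+ (adjusted p = 0.665 and 0.983). The count of 7 became 1 without the p53+/+ array at 2 h and 3 without either untreated p53+/+ array. Centred on the array median, which moved the median of all genes to -0.29, 22 fell. The median of the 30 genes was -0.15 without the array at 2 h and -0.71 without that at 4 h in p53+/+, and 0.14 and -0.3 in p53-/-.

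Taken at each time alone, a choice made after the data were seen, the p53+/+ changes were larger at 2 h. At 2 h 9 genes fell (2.55% of all genes) with a median of -0.71, and at 4 h 1 gene, Ccnb1, fell (10.8% of all genes) with a median of -0.15. From 2 h to 4 h, 29 of the 30 log2 changes were above 0, with a median of 0.53, and Aurka rose by 0.91 ± 0.22 (adjusted p = 0.0379), where 0.312% of all genes fell and 1.21% rose. Centred on the array median, 17 of the 30 changes were above 0 from 2 h to 4 h, and 18 genes fell at 4 h.

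In p53-/- 3 genes fell at 2 h, where 0.224% of all genes did. Ccnb1 fell by 1.43 ± 0.29 (adjusted p = 0.014). Cdc25c, with log2 levels of -1.34 and -1.38 at 0 h, -2.49 at 2 h and -1.45 at 4 h, fell by 1.12 ± 0.24 (adjusted p = 0.0194). Cenpf, with levels of 3.27 and 3.22, 2.13 and 3.16, fell by 1.11 ± 0.26 (adjusted p = 0.0364). At 4 h their changes from 0 h were -0.38, -0.09 and -0.08 (adjusted p = 0.85, 0.985 and 0.99). Cdc20 and Hmmr had changes of -1.03 ± 0.26 and -1 ± 0.25 at 2 h (adjusted p = 0.0579 and 0.054). These rest on 1 irradiated array, and other settings gave 1 to 5 genes.

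At 4 h none of the 30 genes differed from 0 h in p53-/- (0.0195% of all genes fell and 0.19% rose), 5 had an unadjusted p under 0.05, and the median change was 0.14. From 2 h to 4 h each of the 30 changes was above 0, by 0.1 to 1.15 with a median of 0.53, and none passed the threshold (0.166% of all genes fell and 0.0877% rose), with 10 at an unadjusted p under 0.05. All 30 were above 0 under each scaling tried as well. Kif11 stood highest at 4 h, with log2 levels of 0.49 and 0.57 at 0 h, 0.84 at 2 h and 1.3 at 4 h. Its change was 0.77 ± 0.28 at 4 h (adjusted p = 0.377). Bub1, with levels of 1.14 and 1.23, 1.48 and 1.76, and Ccna2, with 3.88 and 3.79, 3.98 and 4.38, also had no level below the untreated ones. A dimmer Kif11 probe rose by 1.36 in irradiated p53-/- (adjusted p = 0.00828), and a Top2a probe of a separate cDNA accession by 1.46 (adjusted p = 0.000842), where the brightest Kif11 and Top2a probes changed by 0.54 and 0.14 (adjusted p = 0.302 and 0.908).

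**Figure D4:**
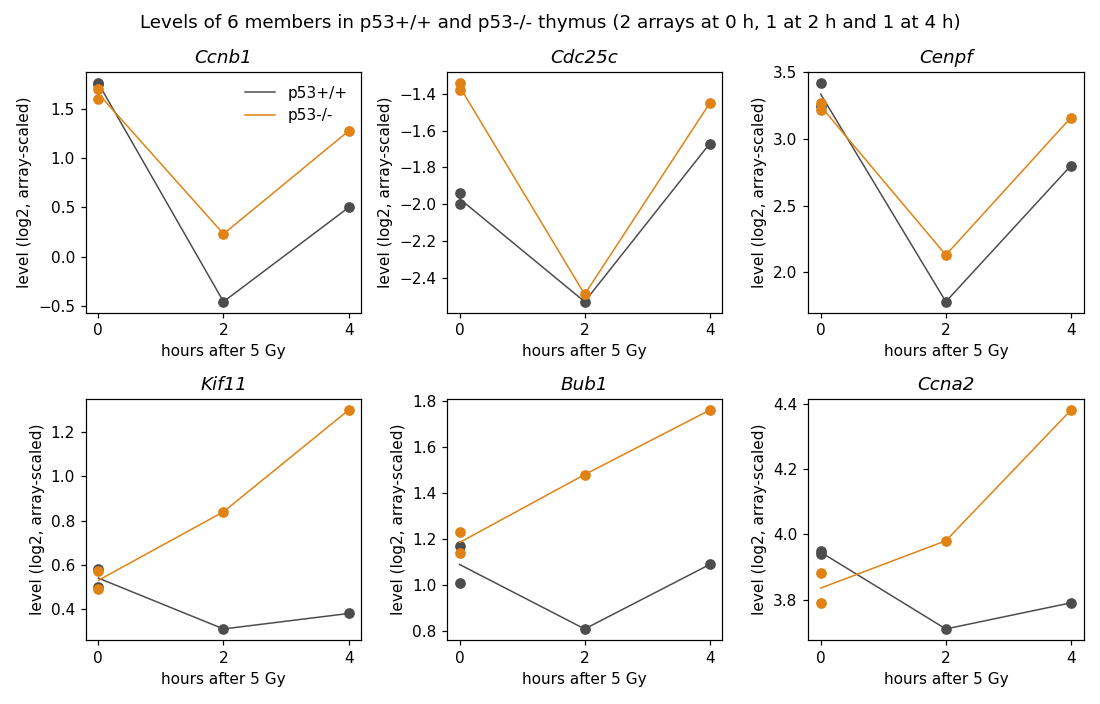
Log2 level (vertical axis) of Ccnb1, Cdc25c, Cenpf, Kif11, Bub1 and Ccna2 against hours after 5 Gy (horizontal axis) in p53+/+ (grey) and p53-/- (orange); points are arrays and lines join the means, with 2 arrays at 0 h and 1 at each later time. Ccnb1, Cdc25c and Cenpf dip at 2 h in both genotypes, and Kif11, Bub1 and Ccna2 are higher at 4 h than at 0 h in p53-/-.

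Set against each other directly, untreated p53+/+ and p53-/- differed in none of the 30 genes (0.365% of all genes lower and 0.341% higher in p53+/+). Here 2 genes had an unadjusted p under 0.05, and the furthest apart was Cdc25c at -0.61 ± 0.2 (adjusted p = 0.181). After irradiation, 7 genes were lower in p53+/+ (8.71% of all genes) and none was higher. These were Kif11 at -0.72 ± 0.22 (adjusted p = 0.0263), Bub1 at -0.68 ± 0.21 (adjusted p = 0.0285), Nusap1 at -0.61 ± 0.2, Ccnb1 at -0.74 ± 0.24, Cdk1 at -0.82 ± 0.27, Kif20a at -0.65 ± 0.22 and Cdc25b at -0.47 ± 0.17. Cdc20 and Hmmr lay on the other side of 0, at 0.28 ± 0.21 and 0.1 ± 0.2 (adjusted p = 0.344 and 0.743). The count of 7 became 0 without the p53+/+ array at 2 h or the p53-/- array at 4 h, and 3 without the p53+/+ array at 4 h. It was 23 when centred on the array median and 1 with slide as a fixed block. Both irradiated p53+/+ arrays shared a slide, and both irradiated p53-/- arrays shared another. Slide and genotype therefore cannot be told apart among the irradiated arrays alone, which also enter the difference of responses below. Only the untreated arrays of each genotype lay on both slides.

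The test of the difference between the responses of the 2 genotypes called none of the 30 genes (2.26% of all genes lower and 3.16% higher), and 5 had an unadjusted p under 0.05. The median difference was -0.44, beside 0.07 for all genes, and 25 of the 30 were below 0. That median was -0.09 without the p53+/+ array at 2 h, -0.2 without the p53-/- array at 4 h, and -0.64 to -0.38 without any of the other 6. Ccnb1 stood at -0.85 ± 0.34 (adjusted p = 0.146), Cdk1 at -0.74 ± 0.38, Kif11 at -0.73 ± 0.32 and Plk1 at -0.66 ± 0.31. Cdc25c at 0.47 ± 0.28, Hmmr at 0.27 ± 0.29, Ccnf at 0.26 ± 0.25 and Cdc20 at 0.26 ± 0.3 lay above 0. The same test called Cdkn1a at 3.54 ± 0.47 (adjusted p = 3.68e-05). A fall in p53+/+ that was not called in p53-/- is therefore not shown to differ between them for any of the 30 genes.

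Other genes of mitosis were read from lists drawn up by role. For these counts, 4.88% of all genes fell and 9.66% rose in P72 at 2 h, and 20.8% fell and 35.8% rose at 4 h. In R72, 6.8% fell and 6.25% rose at 2 h, and 16% fell and 28.8% rose at 4 h. Of 29 tested genes of the spindle checkpoint and outer kinetochore, 10 fell at 2 h and 21 at 4 h in P72, 7 and 15 in R72, and none rose. Cdca8 (borealin, of the chromosomal passenger complex) fell by 0.7 and 1.03 in P72 and 0.74 and 0.78 in R72. Spc24, of the Ndc80 complex, changed by -0.21 at 2 h in P72 and fell by 1.02 at 4 h. Of 15 genes of condensin, cohesin and separase, 3 fell at 2 h in each genotype, and 12 fell at 4 h in P72 and 11 in R72. Espl1 (separase) fell by 0.59 and 0.83 in P72 and 0.63 and 0.67 in R72.

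Lists of mitotic entry and exit were read in the same way. Of 11 genes of mitotic entry, 5 fell at 2 h and 9 at 4 h in each genotype. Among them were Cks2, a Cdk1 subunit, which fell by 1.01 and 1.03 in P72, and the inhibitory kinase Wee1, which fell by 0.72 and 1.21. Of 15 APC/C subunits and inhibitors, 2 fell at 2 h in each genotype, and 8 fell at 4 h in P72 and 5 in R72, beside 20.8% and 16% of all genes. The APC/C co-activator Fzr1 (Cdh1) fell in all 4 comparisons, by 0.66 and 0.73 in P72 and by 0.93 and 0.66 in R72.

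The regulators known for these promoters were fewer to fall at 2 h than at 4 h by count, as were all genes. Of all genes, 4.88% fell at 2 h and 20.8% at 4 h in P72, and 6.8% and 16% in R72. Whether the order in this list depends on the centring of the arrays was not tested. Of 15 MuvB, Foxm1, E2F and NF-Y genes, 1 fell and 1 rose at 2 h in P72, and 11 fell and 1 rose at 4 h, with 1 and 0 at 2 h and 7 and 1 at 4 h in R72. Mybl2, which turns MuvB into an activator, changed by 0.14 at 2 h in P72 and fell by 0.93 at 4 h, and by 0.98 at 4 h in R72. Foxm1 fell by 0.36 and 0.63 in P72. Rbl2 (p130, the pocket protein of DREAM) was the gene that rose, by 0.84 and 0.83 in P72 and 0.85 at 4 h in R72.

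Of 24 further kinesins and cytokinesis genes, 11 fell and 2 rose at 2 h in P72, and 9 fell and 2 rose in R72. At 4 h 12 fell and 3 rose in P72 and 7 fell and 3 rose in R72, and the share of the list that rose was below that of all genes. Aspm, a spindle pole protein, fell by 1.18 and 0.97 in P72, and Cep55, of the midbody, by 0.88 and 0.82. The genes that rose at 2 h were Psrc1 and Gtse1, both known p53 targets. Psrc1 rose by 2.46 and 3.05 in P72 and by 2.4 and 2.94 in R72, and Gtse1 by 2.35 and 1.94 in P72 and by 2.35 and 2.02 in R72. Their responses differed between p53+/+ and p53-/- by 3.79 (adjusted p = 1.62e-10) and 2.84 (adjusted p = 2.29e-06).

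Genes of G1/S and replication were mostly called at 4 h. Of 30 tested, 2 fell and 1 rose at 2 h in P72 and 29 fell at 4 h, and in R72 9 fell at 2 h and 29 at 4 h. Their median log2 change was -0.17 and -0.98 in P72 and -0.24 and -1 in R72, where that of the 30 mitotic genes was -0.93 and -0.86, and -0.73 and -0.65. The difference between the lists was not tested, and for the mitotic genes the order of 2 h and 4 h depends on the centring of the arrays. In irradiated p53-/-, 7 of the replication genes rose and none fell, with a median of 0.51. Of all genes, 0.74% rose and 0.326% fell there. The response of 13 replication genes was lower in p53+/+ than in p53-/-, as for 2.26% of all genes. These comparisons rest on 1 irradiated array per genotype at each time. Ung, which removes uracil from DNA, fell by 1.18 and 2.23 in P72 and by 1.32 and 2.09 in R72. Cdc6, which loads the replicative helicase, rose by 0.99 in irradiated p53-/-, and the response of Ccne1 (cyclin E1) was lower in p53+/+ by 1.30 (adjusted p = 0.000333).

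**Figure D5:**
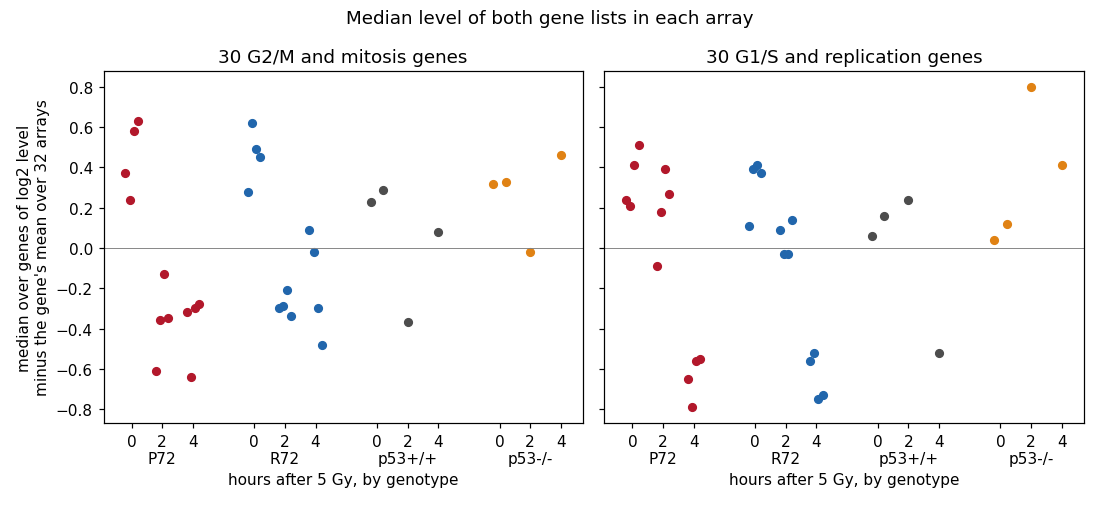
Median over 30 G2/M and mitosis genes (left) and 30 G1/S and replication genes (right) of the log2 level minus the gene's mean over all 32 arrays (vertical axis), by hours after 5 Gy and genotype (horizontal axis); each point is 1 array. In P72 the mitotic median is below 0 on all arrays at 2 h and 4 h, while the replication median is above 0 on 3 of 4 arrays at 2 h and below 0 on all at 4 h.

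Markers of thymocytes and of other cells of the thymus were read on the same arrays. All 12 markers of double positive thymocytes, the main thymocyte population, were well above background on all arrays, and their summed linear level (in units of the array's 75th percentile) lay between 946 and 1180 in untreated P72 and between 1040 and 1150 at 4 h. In R72 it was 937 to 1070, 830 to 1080 and 1080 to 1170 at 0 h, 2 h and 4 h. The p53-/- arrays had 989 to 1120, 838 and 946, and the p53+/+ arrays 939 to 1080, 1030 and 1120. Markers of the earlier double negative stage summed to 49.4 to 59.2 at 0 h and 43.4 to 52 at 4 h in P72. In R72 these sums were 46.8 to 56.1 and 43.7 to 46.1. Of 9 markers of thymic epithelium, 5 rose at 2 h and 7 at 4 h in P72, and none at 2 h and 4 at 4 h in R72. Their summed level was 11.8 to 28.2, 35.8 to 50.1 and 52.1 to 75.4 at 0 h, 2 h and 4 h in P72, and 32.6 to 41.5, 33.1 to 56.7 and 55.1 to 81.4 in R72. All 9 tested neutrophil markers rose in P72 at 4 h and none in R72, with sums of 35 to 62 at 0 h and 70.1 to 144 at 4 h in P72, and 67.4 to 86.8 and 66.9 to 137 in R72. The test of the difference between the P72 and R72 responses at 4 h called none of these 9 epithelial or 9 neutrophil markers (smallest adjusted p = 0.84 and 0.708). Of the epithelial markers 8 of 9, and of the neutrophil markers 6 of 9, were well above background on all arrays. At 4 h 5 of 9 macrophage and 4 of 7 dendritic cell markers rose in P72, and 2 and 3 in R72, where 35.8% and 28.8% of all genes rose. Before irradiation, the epithelial and neutrophil markers were lower in P72 than in R72 by a median of 0.8 and 0.98, and 1 epithelial marker passed the threshold. In p53+/+ the epithelial sum was 31 to 31.4 at 0 h, 30.5 at 2 h and 53.8 at 4 h. In p53-/- it was 35.8 to 36.2, 27.3 and 20. The sum of 5 erythroid (red cell) markers was 135 to 136, 99.7 and 19.6 in p53+/+, and 138 to 140, 83.7 and 77 in p53-/-. Each of these 2 h and 4 h values is 1 array. The part of these cells in the changes of the mitotic genes was not tested.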

How the data were processed

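RNA from mouse thymocytes was hybridised to 32 Agilent 1-colour arrays (Cy3). The deposited scanner files hold, per the file headers, the processed intensity of each spot from Agilent Feature Extraction 9.5.3.1 (9.5.3 per the submitters' processing notes), with background subtracted and spatial trends removed. The authors' deposited value table holds log2 values of the same arrays (lowest correlation with the scanner values 0.973) and served as an alternative. The 1639 control spots were removed, which left 43379 spots. Outlier spots were left out (0.223% of values) and spots of a probe averaged. The log2 intensities were centred on the 75th percentile of each array. A probe was kept if 4 or more of the 32 arrays measured it well above background, and the brightest probe of each gene was taken. Gene names are those of the files, updated through RefSeq tables for 5200 of the 23082 probes with a current symbol.

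Changes were tested with limma 3.58.1 (lmFit and eBayes, R 4.3.3), two-sided, with Benjamini-Hochberg adjustment over 20527 genes and a threshold of 0.05. The P72 and R72 fits used their 24 arrays, and the p53 fits all 32. Adjusted p-values of single probes are over all kept probes. The fit was tested on simulated data with independent noise for each gene and array. Those data held no variation shared by slide, scan date or replicate number, so the test does not cover it. The P72 and R72 arrays of a group are described as independent experiments, so their p-values measure the spread between pools of mice. The p53 p-values use the spread over all 32 arrays. They do not measure the spread between p53+/+ or p53-/- pools, whose untreated arrays are not known to be separate pools. The fit counts these arrays as separate samples, and would also do so for repeats of the same RNA. Their neutrophil marker sums were 29 and 29.8 in p53+/+ and 38.9 each in p53-/-, beside 35 to 62 in untreated P72. Double positive marker sums were 939 and 1080, and 989 and 1120, beside 946 to 1180. Whether a pair shares its RNA was not tested. Nothing in the labels says that replicate numbers mark shared animals, so no block was used in the main fit. Yet 21 of the 24 P72 and R72 arrays correlated best with an array of their own number. A replicate block was therefore fitted as an alternative, and 106 of 108 single-gene calls stayed. Sequences were matched in Python 3.11.15 with pandas 2.3.3.

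The members and lists were chosen with earlier results of these data known. Any of the 30 genes could be named. Per comparison up to 4 genes with the largest change and up to 4 with the smallest or opposite change are given in full, with any gene whose probes disagree in sign, and up to 4 genes of another list. The 2 h and 4 h results for p53+/+ and p53-/- were added after seeing the data. Alternatives covered background correction, scaling, the filter, the probe rule, slide, scan date, replicate number, the arrays fitted and each array left out.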

Additional observations from a re-analysis of the deposited data

Results flagged for a closer look

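Within groups of 4 arrays, an array stood far from the other 3 in 9 of 180 combinations of gene and group, or 5%, which is about the share that chance gives with this rule. In P72 at 4 h the second array was the lowest for Ccnb2 (3.97, with the nearest at 4.29), Nek2 (-0.22), Cdc20 (3.64) and Ube2c (2.38). In P72 at 2 h the first array was the lowest for Aurka (2.73, with the nearest at 3.04). In untreated R72 the level of Cenpa was 1.54 on the second array and that of Kif20a 3.66 on the first. In R72 at 2 h the fourth array stood apart for Ccnf (0.06) and Ect2 (2.37).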

How the results depend on the processing

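None of the 122 single-gene calls reversed when 1 array was left out, and 112 of 920 such fits lost the call. Genes without a call were not followed in this way. The falls at 2 h and 4 h kept their direction with 1 array left out: the count of the 30 genes ran from 20 to 28 in P72 at 2 h, 28 to 30 in P72 at 4 h, 19 to 24 in R72 at 2 h and 22 to 26 in R72 at 4 h. With normexp these R72 counts were 11 and 14. From 2 h to 4 h in P72 (3 genes) the count was 0 with normexp, 1 with quantile normalization or without the filter, 14 when centred on the array median, 5 with the mean of probes, 8 and 7 with slide as a fixed and a random block and 6 with scan date, and 0 to 3 with 1 array left out. In R72 (3 genes) the same settings gave 0 with normexp, 5 with quantile normalization or all 32 arrays, 10 on the array median, 7 and 6 with slide, 9 with scan date, and 0 to 9 with 1 array left out. P72 against R72 at 2 h gave 1 gene with slide fixed or with scan date, and all other such comparisons gave 0 to 0 with 1 array left out. In irradiated p53+/+ (7 genes) the count was 4 with normexp, 3 with quantile normalization, 22 on the array median, 14 with scan date, 13 with the 8 arrays alone, 1 at 4 h alone, and 1 to 9 with 1 array left out. In irradiated p53-/- (0 genes) it was 1 in the authors' table or with probes above background on all 32 arrays, 2 with slide random, 3 with scan date, 3 at 2 h alone, and 0 to 3 with 1 array left out. Irradiated p53+/+ against p53-/- (7 genes) gave 3 with normexp, 1 with quantile normalization, 23 on the array median, 2 with the mean of probes, 1 with slide fixed, 13 with scan date or the 8 arrays alone, and 0 to 7 with 1 array left out. The difference of p53 responses (0 genes) gave 4 on the array median and 1 with the 8 arrays alone. Of the 122 calls, those that reversed in another setting were Cdc25b in P72 from 2 h to 4 h, at -0.05 on the array median, and Nusap1 in R72 at 4 h, at 0.05 with the mean of probes. Except for the changed sets of arrays and probes, the cause was not tested. Replicate numbers are shared between groups, but 34 of 60 same-numbered pairs deviated together (correlation over 0.1), and 21 of 24 arrays correlated best with their own number. With the replicate block the counts were 25 and 30 in P72 at 2 h and 4 h, 22 and 25 in R72 and 3 from 2 h to 4 h in each, and 106 of 108 single-gene calls stayed. The 30 chosen probes were well above background on all 32 arrays, yet normexp ended 50 of 122 single-gene calls.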
